A study of Mus musculus with 15 samples.

Results

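The costimulatory genes described here are 7 of the 17030 genes in the deposited table. They were taken by gene symbol: the B7 family ligand genes Cd80, Cd86 and Icosl, the TNF family ligand genes Tnfsf9 and Tnfsf4, the TNF receptor family gene Cd40, and Cd83. Messenger RNA from mouse bone marrow, labelled as primary cells throughout, was sequenced as 15 libraries in 5 groups of 3. Progenitor cells, Hoxb8 macrophages and BMDM (bone marrow-derived macrophages) were labelled wild type and untreated. The CAR group were macrophages labelled with CAR expression and CAR treatment, and the control-CAR group were macrophages labelled with control-CAR expression and control-CAR treatment. CAR stands for chimeric antigen receptor, a man-made surface protein that joins a target-binding domain to signalling domains. Neither its target nor the make-up of the control receptor is in the labels, nor are age, sex and strain. Hoxb8 is a transcription factor whose forced expression is commonly used to keep myeloid progenitors growing in culture.

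A T cell that meets its antigen on a macrophage or dendritic cell also reads further signals from the surface of that cell. CD80 and CD86 both bind CD28, which promotes activation, and CTLA-4, which restrains it. ICOS ligand, 4-1BB ligand (the product of Tnfsf9) and OX40 ligand (the product of Tnfsf4) bind the T cell receptors ICOS, 4-1BB and OX40. CD40 runs the other way: it is the receptor through which a helper T cell, by CD40 ligand, activates the antigen-presenting cell. CD83 is a surface marker of mature dendritic cells and is known to protect MHC class II and CD86 from the ubiquitin ligase MARCH1, which removes them from the surface.

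Library totals ran from 16962839 to 19221681 estimated counts. The labels do not say whether the libraries of a group are separate cultures or mice. Every p-value is therefore set against a spread between libraries that may be technical. Counts of libraries of the same group differed by 1.42 to 2.07 chi-square per degree of freedom in the CAR group, where 1 is counting noise, 2.08 to 3.51 in progenitors, 4.82 to 8.46 in Hoxb8 macrophages, 2.97 to 15.3 in control-CAR (replicate 1 differed from both others) and 6.92 to 22.3 in BMDM. Markers of macrophages (8 genes) summed to 2445 to 2509 FPKM in the CAR libraries, 7176 to 7780 in control-CAR, 7449 to 8164 in Hoxb8 macrophages, 9644 to 10582 in BMDM and 187 to 205 in progenitors. FPKM divides the reads of a gene by the length of its transcript and by the size of the library. Markers of mast cells and basophils (9 genes) summed to 3648 to 3872 FPKM in the CAR libraries and 421 to 472 in control-CAR. B cell markers (6 of 7 genes in the table) summed to 33.3 to 58.5 FPKM in BMDM and 1.77 to 3.18 in the CAR and control-CAR libraries. In bulk RNA, fewer cells of a type and less RNA per cell cannot be told apart.

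All 7 genes passed the filter of at least 1 FPKM in 3 libraries, but Cd86, Cd40 and Tnfsf4 passed only through the BMDM and CAR libraries, where they were high. The 7 genes together summed to 6.89 ± 0.216 FPKM in progenitors (SD, n = 3). The sum was 168 ± 8.80 FPKM for BMDM, 217 ± 2.87 for CAR macrophages, 230 ± 13.5 for Hoxb8 macrophages and 244 ± 5.20 for control-CAR macrophages. The largest gene in the sum differed between groups. Cd80 held 67.1% of the sum in control-CAR macrophages, 61.9% in Hoxb8 macrophages and 37.9% in BMDM. Cd83 led in CAR macrophages with 42.4%, and Icosl in progenitors with 70.1%.

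**Figure D1:**
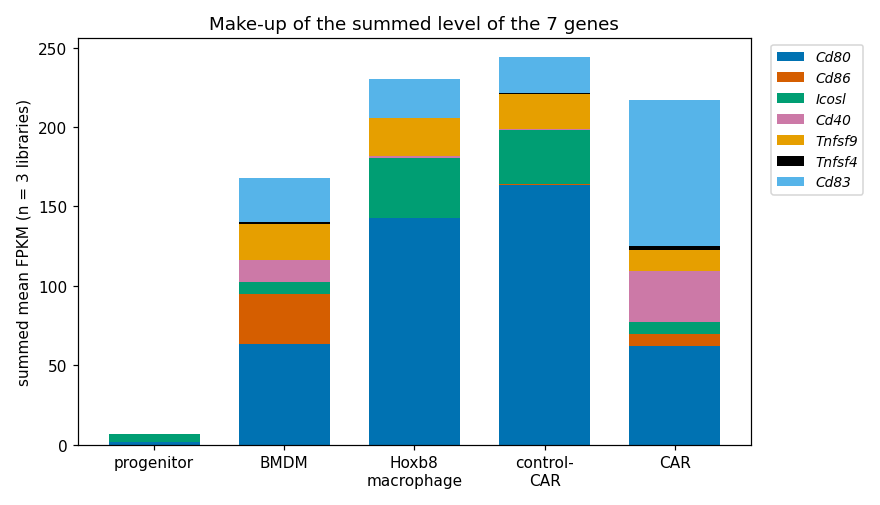
Stacked bars of the mean FPKM (n = 3 libraries) of the 7 genes in each group, with the axis starting at 0. Cd80 is the largest block in BMDM, Hoxb8 macrophages and control-CAR macrophages, and Cd83 (42.4% of the sum) in CAR macrophages.

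The comparison named in the series design sets CAR macrophages against control-CAR macrophages. Cd86, Cd40, Tnfsf4 and Cd83 were higher in the CAR libraries and Cd80, Icosl and Tnfsf9 were lower. All 7 passed edgeR's quasi-likelihood test, against a background of 78.7% of the 11793 genes tested, so the number that passed is near what most genes did. Of all tested genes 41.9% were called higher and 36.8% lower. That split depended on the scaling: it was 4946 and 4334 genes with TMM (a scaling that takes most genes as unaltered), but 6722 and 2770 with library totals, 6713 and 2770 on FPKM, 6732 and 2766 on FPKM with a pseudocount of 0.1, 8018 and 1933 on TPM, and 4212 and 5306 on quantile-normalised FPKM. Over all tested genes the median log2 change was 0.06 with TMM, 0.37 with library totals, 0.29 on FPKM and 0.52 on TPM. Changes below are relative to TMM. The FPKM values of the 3 CAR and 3 control-CAR libraries did not overlap for any of the 7 genes, as for 82.1% of all tested genes.

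**Figure D2:**
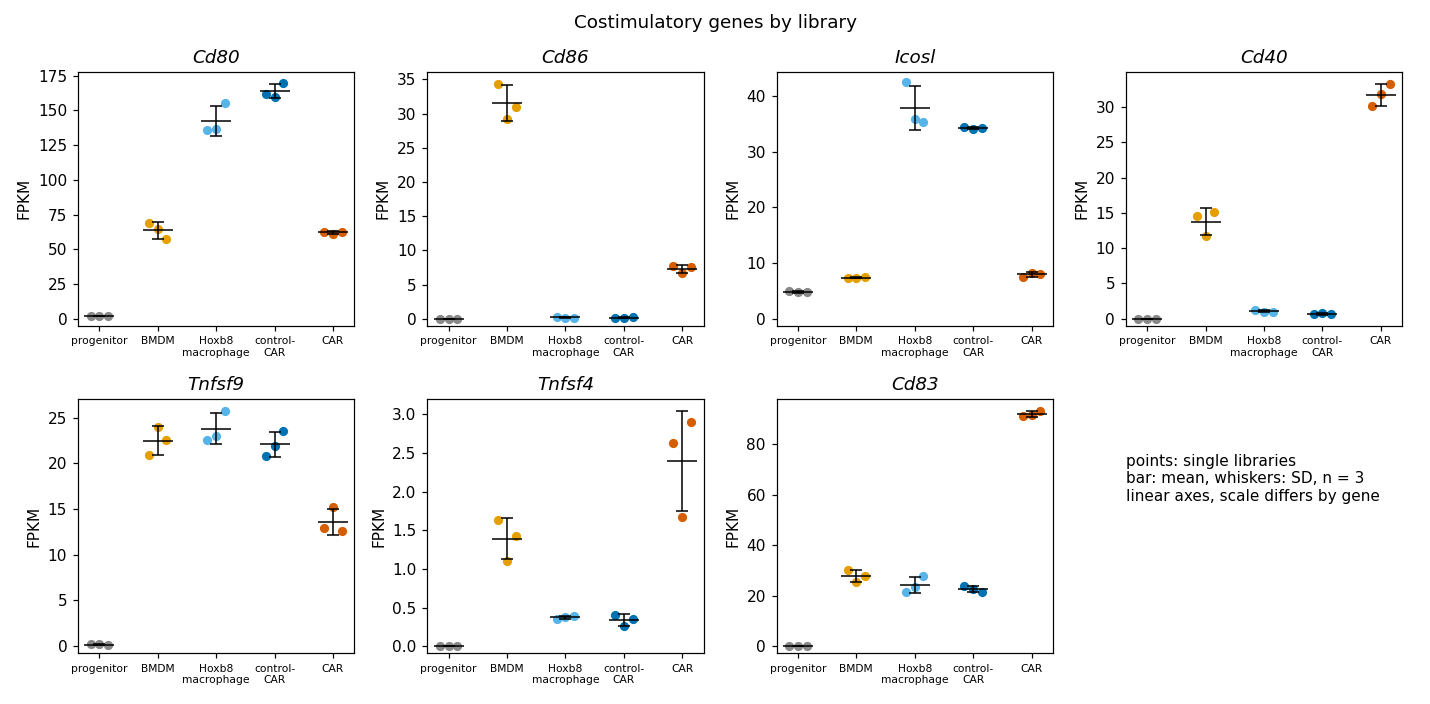
FPKM of each gene in each of the 15 libraries (points), with the group mean (bar) and SD (whiskers, n = 3), on linear axes whose scale differs by gene. Cd80 and Icosl are highest in Hoxb8 and control-CAR macrophages, Cd40, Tnfsf4 and Cd83 in CAR macrophages, and Cd86 in BMDM.

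Among the B7 family ligands, Cd80 was the most abundant in every macrophage group. It stood at 161.8, 159.97 and 169.36 FPKM in the control-CAR libraries. In the CAR libraries it stood at 62.6, 61.19 and 62.59 FPKM. Every CAR library was thus well below every control-CAR library, and the 3 CAR libraries differed little from each other. The model gave Cd80 a log2 change of -1.47 (SE 0.06, edgeR adjusted p = 9.2e-14), 2.77-fold lower, and 22.2% of tested genes changed at least as much in either direction.

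Cd86, which binds the same T cell receptors as Cd80, went the opposite way. It stood at 0.16, 0.10 and 0.23 FPKM in the control-CAR libraries, from only 6, 4 and 9 counts. In the CAR libraries it stood at 7.74, 6.64 and 7.60 FPKM, from 310, 277 and 315 counts. The CAR libraries were all far above the control-CAR libraries, whose level was close to the depth limit. The log2 change was 5.19 (SE 0.21, edgeR adjusted p = 9.0e-14), 36.6-fold higher, and only 5.36% of tested genes changed at least as much.

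Because FPKM is a level per length, these genes can be set side by side. Cd86 made up 0.0990% ± 0.0366 of the summed Cd80 and Cd86 FPKM in control-CAR macrophages (SD, n = 3) and 10.5% ± 0.656 in CAR macrophages. Despite its rise it therefore stayed the minor B7 gene of the pair in the CAR libraries, and the sum of the pair was lower there, at 69.5 ± 1.41 FPKM against 164 ± 5.04. In BMDM the share of Cd86 was 33.2% ± 2.02 and in Hoxb8 macrophages 0.156% ± 0.0564. Both genes lie on chromosome 16 (build GRCm38.p6), Cd80 (gene ID 12519) from 38457430 to 38495958 and Cd86 (12524) from 36568956 to 36666158.

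Icosl (50723, chromosome 10 from 78069368 to 78079525), the ligand of ICOS, fell with Cd80. It stood at 34.42, 34.14 and 34.28 FPKM in the control-CAR libraries and at 7.51, 8.26 and 8.10 FPKM in the CAR libraries. The control-CAR values were nearly equal and every CAR value was under them. The log2 change was -2.41 (SE 0.07, edgeR adjusted p = 1.0e-15), 5.32-fold lower, and 13.2% of tested genes changed at least as much.

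The promoters of Cd80 and Icosl are shown because only these 2 of the 7 genes had an entry in the RefSeq promoter table of GRCm38.p6. They were not chosen by level, though both were highest in Hoxb8 and control-CAR macrophages and lower in CAR macrophages. Each window runs from 250 bases before to 50 after a start site, on the plus strand. Cd80 is at chr16:38458683-38458982 and Icosl at chr10:78069118-78069417. The Cd80 window lies wholly inside the annotated gene, which starts at 38457430, so its start site is not the first base of that gene. The Icosl window spans the start of its gene at 78069368. Capitals mark every match, on either strand, to the motifs of NF-kB (GGGNNNNNCC), AP-1 (TGANTCA), the interferon-stimulated response element ISRE (GAAA, any 2 bases, GAAA), the interferon gamma activated site GAS (TTCNNNGAA) and PU.1 (GAGGAA).
Cd80: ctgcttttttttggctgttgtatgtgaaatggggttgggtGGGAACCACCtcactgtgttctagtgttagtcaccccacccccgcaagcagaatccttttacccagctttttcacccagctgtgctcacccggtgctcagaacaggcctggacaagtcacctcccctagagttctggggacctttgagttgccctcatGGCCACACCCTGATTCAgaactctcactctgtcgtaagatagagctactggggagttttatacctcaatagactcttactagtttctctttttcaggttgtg
Icosl: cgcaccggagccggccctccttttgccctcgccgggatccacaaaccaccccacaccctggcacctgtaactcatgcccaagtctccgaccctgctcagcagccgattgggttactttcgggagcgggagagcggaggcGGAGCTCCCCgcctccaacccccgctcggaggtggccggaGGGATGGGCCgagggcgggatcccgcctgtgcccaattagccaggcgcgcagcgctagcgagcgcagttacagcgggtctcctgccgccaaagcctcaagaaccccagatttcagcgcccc

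Both windows held 2 matches to the NF-kB letters, which is a loose pattern found in 50.8% of the 32851 promoters of this length. In Cd80 they lay at bases 41 to 50 and, on the reverse strand, 199 to 208 of the window. The latter ended where an AP-1 match began, at bases 209 to 215, without overlap. AP-1 letters occurred in 7.81% of all promoters and not in the Icosl window, whose NF-kB matches lay at bases 140 to 149 on the reverse strand and 180 to 189. The letters of ISRE (3.44% of promoters), GAS (8.30%) and PU.1 (28.3%) were not in either window. The Icosl window was also richer in G and C, 68.0% against 49.7% in the Cd80 window, which lies inside its gene. A match is only a run of letters and says nothing of whether a factor binds there.

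Of the TNF family ligands, Tnfsf9 (21950, chromosome 17 from 57105287 to 57107758) fell and Tnfsf4 (22164, chromosome 1 from 161395438 to 161418206) rose. Tnfsf9, which encodes 4-1BB ligand, stood at 20.78, 21.92 and 23.52 FPKM in the control-CAR libraries and at 12.94, 15.26 and 12.57 FPKM in the CAR libraries. The groups did not overlap, but the gap between them was the narrowest of the 7 genes relative to their levels. The log2 change was -1.0 (SE 0.10, edgeR adjusted p = 2.3e-08), 2.0-fold lower, and shrank to -0.45 on TPM, where it was still called. As many as 32.4% of tested genes changed at least as much.

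Tnfsf4, which encodes OX40 ligand, was the scarcest of the 7 genes in CAR macrophages. It stood at 0.41, 0.26 and 0.35 FPKM in the control-CAR libraries, from 9, 6 and 8 counts, and at 2.63, 1.67 and 2.90 FPKM in the CAR libraries, from 61, 40 and 69 counts. The CAR libraries were all higher, with CAR replicate 2 below the other two. The log2 change was 2.52 (SE 0.30, edgeR adjusted p = 8.3e-07), 5.72-fold higher.

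Cd40 (21939, chromosome 2 from 165055614 to 165071654), the receptor for CD40 ligand, rose about as much as Cd86. It stood at 0.66, 0.81 and 0.62 FPKM in the control-CAR libraries, from 15, 20 and 15 counts, and at 30.07, 31.79 and 33.26 FPKM in the CAR libraries. All 3 CAR libraries were far above the control-CAR libraries, and with 731 to 833 counts they were well measured. The log2 change was 5.20 (SE 0.15, edgeR adjusted p = 1.2e-14), 36.8-fold higher, and 5.34% of tested genes changed at least as much.

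Cd83 (12522, chromosome 13 from 43785112 to 43803133) rose from an already substantial level. It stood at 23.72, 22.75 and 21.43 FPKM in the control-CAR libraries and at 91.15, 91.47 and 93.20 FPKM in the CAR libraries. The CAR values were close together and above every other library of the series. The log2 change was 1.72 (SE 0.09, edgeR adjusted p = 1.2e-11), 3.29-fold higher, and 18.9% of tested genes changed at least as much.

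Summed markers of several cell types moved with these changes, though single markers did not all follow their sum. The summed macrophage markers were lower in the CAR libraries and the summed mast cell and basophil markers higher, by the ranges above. Fibroblast markers (7 genes) summed to 51.7 to 53.1 FPKM in the CAR and 16.2 to 19.1 in the control-CAR libraries, and neutrophil markers (8 genes) to 372 to 414 and 1779 to 2189 FPKM. Myeloid progenitor markers (8 genes) summed to 161 to 175 and 13.4 to 15.5 FPKM. Against their sums, Mertk rose from 0.09 FPKM in control-CAR to 0.423 in CAR and Mmp8 from 71.9 to 178, while Pdgfrb fell from 16.9 to 5.81. Of the progenitor markers, Kit, Flt3, Elane and Prtn3 were not called. Lyz2 made up most of the macrophage sum in control-CAR, at 5027 FPKM, and stood at 612 in CAR. The part of these cell types in the changes was not tested. Dendritic cell markers (8 of 9 genes in the table) summed to overlapping ranges, 41.7 to 45.9 FPKM in the CAR and 30.3 to 49.0 in the control-CAR libraries. Within that sum Itgax was called higher in CAR (35.4 against 21.5 FPKM) and Batf3 lower (7.68 against 17.1). Cd209a and Dpp4 were listed at 0 in all 6 libraries. The B cell genes Ms4a1 and Cd79b were at 0 in the 3 CAR libraries. T and NK cell markers (8 genes) summed to 0.770 to 1.18 FPKM in the CAR and 0.480 to 0.830 in the control-CAR libraries.

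**Figure D3:**
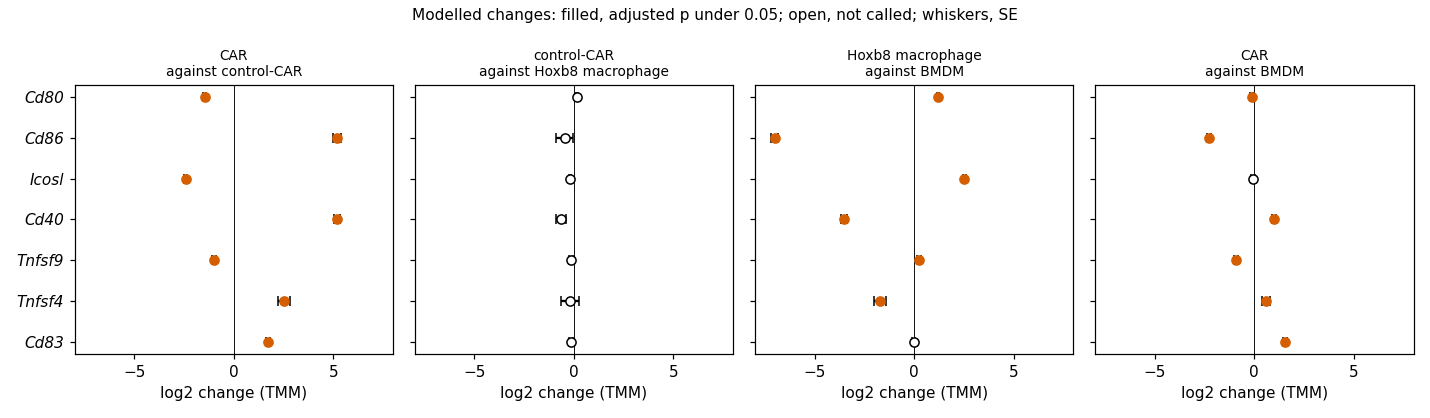
Log2 changes of the 7 genes from the edgeR model in 4 comparisons, with the SE as whiskers; filled points passed at an adjusted p under 0.05 and open points did not. In CAR against control-CAR the B7 genes split, with Cd80 at -1.47 and Icosl at -2.41 against Cd86 at 5.19, while no gene was called between control-CAR and Hoxb8 macrophages.

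Control-CAR macrophages were set against untreated Hoxb8 macrophages, which carry no labelled receptor. None of the 7 genes passed edgeR's test, against a background of 2.62% of all tested genes (0.721% higher and 1.90% lower). The split of all tested genes was 85 and 224 with TMM, but 278 and 192 with library totals, 248 and 157 on FPKM, 241 and 137 with a pseudocount of 0.1, and 310 and 147 on TPM. DESeq2 also called 0 of the 7, and 3 were at an unadjusted p under 0.05 in both tools: Cd80, Icosl and Cd40. Cd80 was 135.68, 136.38 and 155.07 FPKM in the Hoxb8 libraries, all below the control-CAR values (log2 change 0.14, SE 0.06, adjusted p = 0.208). Icosl was 42.47, 35.97 and 35.27 FPKM, all above the control-CAR values (log2 change -0.19, SE 0.06, adjusted p = 0.122). Cd40 was 1.26, 0.95 and 1.01 FPKM, also all above (log2 change -0.66, SE 0.25, adjusted p = 0.169), and limma on log2(FPKM + 0.1) called it lower in control-CAR (adjusted p = 0.034). In these 3 genes the FPKM of the groups did not overlap, as in 21.9% of all tested genes. Cd86 (0.220 ± 0.0693 FPKM in Hoxb8 macrophages, SD, n = 3), Tnfsf9 (23.8 ± 1.71), Tnfsf4 (0.373 ± 0.0208) and Cd83 (24.2 ± 3.19) overlapped with control-CAR.

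Hoxb8 macrophages were compared with BMDM, 2 kinds of untreated macrophage from bone marrow. Cd80 and Icosl were higher in Hoxb8 macrophages and Cd86, Cd40 and Tnfsf4 in BMDM. In total 3 genes were called higher and 3 lower in Hoxb8 macrophages, where 32.0% and 38.3% of all tested genes were. The FPKM of the groups did not overlap for 5 of the 7 genes and for 70.7% of all tested genes. With other scalings the split of all tested genes was 2628 and 5865 with library totals, 2617 and 5758 on FPKM, 1815 and 7172 on TPM and 4869 and 3609 after quantile normalisation, against 3776 and 4516 with TMM.

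The largest difference was that of Cd86. BMDM held 34.38, 29.18 and 30.97 FPKM and Hoxb8 macrophages 0.30, 0.18 and 0.18, a log2 change of -7.01 (SE 0.17, edgeR adjusted p = 1.2e-16), and only 2.43% of tested genes differed as much. Cd40 stood at 14.54, 11.65 and 15.13 FPKM in BMDM, 11.5-fold above Hoxb8 macrophages (log2 change -3.52, SE 0.15, adjusted p = 2.4e-12). The higher Cd86 and Cd40 in BMDM came beside higher B cell markers: Cd79a averaged 17.2 FPKM and Cd79b 15.7 in BMDM, against 0.163 and 0 in Hoxb8 macrophages. Neutrophil markers were also higher and uneven in BMDM, summing to 6138 to 12473 FPKM against 1287 to 1546. Dendritic cell markers summed to 66.5 to 78.9 FPKM in BMDM and 40.8 to 49.2 in Hoxb8 macrophages, and myeloid progenitor markers to 155 to 274 and 12.4 to 15.2. Single markers did not all follow their sum: Batf3 averaged 8.60 FPKM in BMDM and 17.5 in Hoxb8 macrophages, and Kit 3.73 and 4.57. The part of these cells in the difference was not tested.

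Icosl had the reverse pattern. It stood at 7.31, 7.32 and 7.49 FPKM in BMDM, a fraction of its level in Hoxb8 macrophages (log2 change 2.53, SE 0.07, adjusted p = 9.7e-16). Cd80 was 69.04, 64.58 and 57.10 FPKM in BMDM and 2.28-fold higher in Hoxb8 macrophages (log2 change 1.19, SE 0.06, adjusted p = 3.1e-12). Tnfsf4 was 1.64, 1.11 and 1.43 FPKM in BMDM (log2 change -1.72, SE 0.31, adjusted p = 1.3e-04), and its call was lost on quantile-normalised FPKM (log2 change -0.22, adjusted p = 0.206). Tnfsf9, at 20.88, 24.00 and 22.52 FPKM in BMDM, overlapped between the groups. Its call, a log2 change of 0.24 (SE 0.09, adjusted p = 0.0244), was lost without BMDM replicate 1 (adjusted p = 0.0619), without BMDM replicate 3 (0.0502), without Hoxb8 replicate 3 (0.105) and with 5 other scalings (upper quartile, library totals, both FPKM pseudocounts and TPM). Cd83, at 30.25, 25.23 and 27.89 FPKM in BMDM, was not called (log2 change -0.03, SE 0.09, adjusted p = 0.741), but it was called lower in Hoxb8 macrophages with library totals (adjusted p = 0.046), on FPKM (0.0424) and on TPM (9.4e-04).

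CAR macrophages were compared with BMDM as well. Cd40 and Cd83 were higher in CAR macrophages, by 2.02-fold (log2 change 1.01, SE 0.10, edgeR adjusted p = 5.7e-08) and 2.91-fold (log2 change 1.54, SE 0.08, adjusted p = 5.6e-11). Cd86 and Tnfsf9 were lower, by 4.88-fold (log2 change -2.29, SE 0.10, adjusted p = 3.0e-13) and 1.89-fold (log2 change -0.92, SE 0.10, adjusted p = 8.1e-08). Cd80 and Tnfsf4 passed the test but lost their call under several alternatives. The log2 change of -0.14 for Cd80 (adjusted p = 0.0397) came from groups that overlapped and was lost without any 1 of the CAR libraries (adjusted p from 0.0529 to 0.123), any 1 of the progenitor libraries (from 0.0576 to 0.0604) or BMDM replicate 1 (0.231). It was also lost with the upper quartile (0.0734), on FPKM with either pseudocount (0.689 and 0.69), on quantile-normalised FPKM (0.0631) and when only these groups were fitted (0.0769), and turned to 0.04 with library totals and 0.05 on TPM. That of 0.59 for Tnfsf4 (adjusted p = 0.0215) was lost without CAR replicate 1 (0.0742), CAR replicate 3 (0.121) or BMDM replicate 2 (0.0967). It was also lost with DESeq2 (0.0987), on quantile-normalised FPKM (0.0507) and when only these groups were fitted (0.0509). Icosl, at 7.96 ± 0.395 against 7.37 ± 0.101 FPKM (SD, n = 3 each), was not called with TMM (log2 change -0.07, SE 0.08, adjusted p = 0.405) but was called higher on TPM (log2 change 0.17, adjusted p = 0.0241). In total 3 genes were called higher and 3 lower, where 39.2% and 37.8% of all tested genes were. The groups did not overlap for 6 of the 7 genes and for 80.1% of all tested genes. The split of all tested genes was 4618 and 4455 with TMM, 5800 and 3422 with library totals, 5875 and 3372 on FPKM and 6425 and 3017 on TPM. Beside these differences, mast cell and basophil markers summed to 3648 to 3872 FPKM in CAR macrophages and 302 to 321 in BMDM, and neutrophil markers to 372 to 414 and 6138 to 12473. Dendritic cell markers summed to 41.7 to 45.9 and 66.5 to 78.9 FPKM, fibroblast markers to 51.7 to 53.1 and 19.7 to 21.8, B cell markers to 1.77 to 2.30 and 33.3 to 58.5, and macrophage markers to 2445 to 2509 and 9644 to 10582. Here too single markers could go against their sum: Cd68 averaged 738 FPKM in CAR macrophages and 507 in BMDM, and Dcn 3.86 and 10.2. The part of these cell types in the differences was not tested.

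Progenitor cells held little of these genes except Icosl. Cd40, Cd83 and Tnfsf4 had a count of 0 in all 3 progenitor libraries, Cd86 had 1 count in total, Tnfsf9 had 3, 4 and 1 counts, and Cd80 had 45, 48 and 47. All 7 genes were called higher in Hoxb8 macrophages than in progenitors (44.7% of all tested genes were) and higher in BMDM than in progenitors (46.6%). These shares also rest on the scaling: higher and lower were 5269 and 4673 for Hoxb8 macrophages with TMM, but 3123 and 7195 with library totals, 3045 and 7173 on FPKM and 2544 and 7848 on TPM. For BMDM they were 5497 and 4797 with TMM, 3762 and 6959 with library totals, 3694 and 6956 on FPKM, 3454 and 7271 on TPM, and 4309 and 6135 on quantile-normalised FPKM.

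Where the progenitor count was 0, a fold was set against 3 counts per library, the upper 95% limit for a count of 0 in 1 library, which covers counting error only. Cd83 was at least 465-fold higher in Hoxb8 macrophages, at least 477-fold in BMDM, at least 421-fold in control-CAR and at least 1387-fold in CAR macrophages. Cd40 was at least 15.3-fold, 177-fold, 9.65-fold and 357-fold higher in the same order, and Tnfsf4 at least 5.10-fold, 17.0-fold, 4.44-fold and 25.7-fold. For Cd86 the ratio of BMDM to progenitor counts was 5969 with a 95% interval from 1071 to 235808, which covers counting error only. For Hoxb8 macrophages the same ratio was 45.9 (95% interval 7.55 to 1884), with both groups near the depth limit. Tnfsf9, the gene of 4-1BB ligand, rose 244-fold from progenitors to Hoxb8 macrophages (log2 change 7.93, SE 0.19) and Cd80 rose 130-fold (log2 change 7.02, SE 0.09). Icosl was already present at 5.01, 4.75 and 4.73 FPKM in progenitors and rose 14-fold to Hoxb8 macrophages and 2.42-fold to BMDM (log2 change 1.28, SE 0.08, edgeR adjusted p = 3.7e-11). These folds depend on the processing, and their ranges were taken over the other settings and the fits without 1 library. The log2 change of Icosl ran from 2.52 to 3.86 for Hoxb8 macrophages and from 0.44 to 1.29 for BMDM. For Hoxb8 macrophages that of Cd80 ran from 5.53 to 7.05 and that of Tnfsf9 from 4.16 to 8.29. The lowest value of each gene for Hoxb8 macrophages came from a setting with a pseudocount of 1. The highest came from a fit without 1 library, so scaling alone did not set these ranges.

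The order of the 5 groups differed between the genes. Of all tested genes, 79.5% were called between CAR and Hoxb8 macrophages, 69.3% between control-CAR and BMDM, 85.6% between CAR and progenitors and 84.1% between control-CAR and progenitors. For Cd80 the order by mean FPKM was control-CAR, Hoxb8 macrophages, BMDM, CAR and progenitors, and the first pair was not called apart (adjusted p = 0.208). For Icosl it was Hoxb8 macrophages, control-CAR, CAR, BMDM and progenitors, with the first pair (0.122) and the CAR and BMDM pair (0.405) not called apart. For Cd86 it was BMDM, CAR, Hoxb8 macrophages, control-CAR and progenitors. Cd40, Tnfsf4 and Cd83 shared the order CAR, BMDM, Hoxb8 macrophages, control-CAR and progenitors. In Cd86, Cd40 and Tnfsf4 the Hoxb8 and control-CAR neighbours alone were not called apart, at adjusted p = 0.617, 0.169 and 0.871. In Cd83 the BMDM and Hoxb8 neighbours (0.741) and the Hoxb8 and control-CAR neighbours (0.426) were not called apart. Tnfsf9 ran from Hoxb8 macrophages through BMDM and control-CAR, which were not called apart (0.418), to CAR and progenitors.

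The correlations between genes were taken over the 15 libraries, which share conditions in groups of 3, and are a description only. On log2(FPKM + 1), the Pearson correlation was 0.98 between Cd40 and Tnfsf4, 0.87 between Cd86 and Cd40, 0.97 between Cd80 and Tnfsf9, and -0.46 between Cd86 and Icosl. The search for like genes took tested genes with a group mean of at least 5 FPKM. It passed over symbols that begin with LOC or with Gm and a digit, end in Rik or are bare identifiers. Those with the pattern most like Cd40 over the 15 libraries were Ifi211, Ifi207 and Ifi204 (each r = 0.996), members of the interferon-inducible p200 family. Ifi204 averaged 52.2 FPKM in CAR macrophages, 20.7 in BMDM and 1.20 in control-CAR macrophages. Most like Cd80 were Cstdc4, Anxa2 and Ggh (each r = 0.998). Most like Icosl were the metallothionein gene Mt1 (r = 0.995), Abca8b (0.993) and Cyp2ab1 (0.991). Most like Tnfsf9 were Cd74, the invariant chain of MHC class II (0.999), Emilin2 (0.998) and Bcl2a1d (0.998), whose counts are uncertain because near-identical copies share reads. Most like Cd86 were Sh3bp4 (0.999), Mmp25 (0.998) and Ppfibp2 (0.997). For Cd83 they were Akr1c12 (0.998), Vwf (0.998) and Parp14 (0.996), and for Tnfsf4 Abr, Nqo1 and Alox15 (each 0.981). Several of these are members of gene families whose copies may share reads.

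The T cell receptors for these ligands were looked at in the same libraries. Of 6 counter-receptor genes, 3 passed the filter, and in CAR against control-CAR macrophages 2 rose and 1 fell (1 and 1 after quantile normalisation). Of all tested genes, 41.9% were called higher and 36.8% lower in the same comparison. Tnfrsf9, which encodes 4-1BB, the receptor for the Tnfsf9 product, was abundant in the macrophages themselves. It averaged 743 ± 51.3 FPKM in control-CAR, 762 ± 95.2 in Hoxb8 macrophages, 464 ± 17.8 in CAR macrophages and 332 ± 30.5 in BMDM (SD, n = 3), and was listed at 0 in progenitors. It fell by 0.99 on the log2 scale (SE 0.09, edgeR adjusted p = 2.8e-08) between control-CAR and CAR, and its ligand gene Tnfsf9 fell as well, by the value above. Cd28 rose from 1.77 ± 0.453 to 4.64 ± 0.203 FPKM (1.09 on the log2 scale, SE 0.16), and Tnfrsf4, the gene of OX40, from 0.360 ± 0.246 to 1.27 ± 0.580 (log2 change 1.58, SE 0.46, adjusted p = 0.00449). Of the 3 genes under the filter, named after their values were seen, Ctla4 averaged 1.03 FPKM in BMDM and was listed at 0 in the other groups, and Icos and Cd40lg stayed under 1 FPKM in every group mean.

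Of 14 tested genes of CD40 signalling (TRAF adaptors, the kinase NIK and NF-kB proteins), 1 was called higher and 9 lower in CAR against control-CAR macrophages. Of all tested genes 41.9% were called higher and 36.8% lower. The median log2 change of the 14 genes was -0.31 where all tested genes had 0.06. The balance of the 14 genes rested on the scaling: it was 4 and 7 with the upper quartile, 5 and 5 with library totals and on FPKM, 7 and 2 on TPM, and 2 and 7 after quantile normalisation. Birc3, a ubiquitin ligase that keeps NIK in check, fell from 156 ± 4.57 to 79.0 ± 1.70 FPKM (-1.32 on the log2 scale, SE 0.05). Nfkbia, the NF-kB inhibitor, fell from 516 ± 41.9 to 272 ± 8.29 FPKM (-1.23 on the log2 scale, SE 0.08). Map3k14, the gene of NIK, fell from 6.47 ± 0.261 to 4.99 ± 0.140 (log2 change -0.68, SE 0.08). In Hoxb8 macrophages Map3k14 averaged 5.03 ± 0.535 FPKM, near its CAR level. Birc3 (154 ± 9.09) and Nfkbia (569 ± 41.3) were there nearer to their control-CAR levels.

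A list of 6 tested genes was drawn up around the surface level of CD86 and CD83. It holds the ligase genes Marchf1 and Marchf8, Il10 and its receptor gene, and also Tfrc and Cd74, for which no such role is claimed. Of the 6 genes 3 rose and 3 fell, where 41.9% and 36.8% of all tested genes did. The median log2 change of the 6 genes was -0.63 with TMM (0.06 over all tested genes), -0.32 with library totals, -0.09 on FPKM and 0.07 on TPM. Il10, the cytokine interleukin 10, which restrains antigen-presenting cells, rose from 1.25 ± 0.167 to 18.5 ± 0.928 FPKM (3.59 on the log2 scale, SE 0.18). Its receptor gene Il10ra fell from 67.2 ± 3.14 to 21.3 ± 0.569 FPKM (-1.96 on the log2 scale, SE 0.07), and Cd74 from 1002 ± 79.2 to 308 ± 4.76 FPKM (-2.02 on the log2 scale, SE 0.07). Marchf1, the gene of the ligase from which CD83 protects CD86, lies outside the rule for named genes and was chosen after its values were seen. It averaged 1.38 FPKM in CAR, 3.99 in control-CAR and 37.3 in BMDM, with a log2 change of -1.87 (SE 0.17) between CAR and control-CAR. Marchf8, the other ligase gene of the list, went the opposite way. It averaged 25.7 FPKM in CAR, 12.7 in control-CAR and 11.0 in BMDM (log2 change 0.73, SE 0.05, between CAR and control-CAR).

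Of 12 tested genes of the mature dendritic cell program, 7 rose and 4 fell (median log2 change 0.41), where 41.9% and 36.8% of all tested genes did (median 0.06). The split of the 12 genes was 8 and 3 with library totals, on FPKM and on TPM, and 5 and 3 on quantile-normalised FPKM. Fscn1, the actin-bundling protein of mature dendritic cells, stood at 39.8 ± 0.767 FPKM in CAR against 0.0167 ± 0.0289 in control-CAR macrophages. Its counts of 5131 against 2 gave a ratio of 2005 with a 95% counting interval from 555 to 16562. Il12b, the p40 subunit gene of interleukins 12 and 23, went the opposite way, from 70.4 ± 14.1 to 12.3 ± 0.722 FPKM (-2.81 on the log2 scale, SE 0.12). Cd200 rose from 0.0933 ± 0.0416 to 0.567 ± 0.187 FPKM (2.24 on the log2 scale, SE 0.38) and was far higher in BMDM, at 17.8 ± 0.990.

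Of 13 tested transcription factor genes of antigen-presenting cells, 7 rose and 6 fell (median log2 change 0.37), and 7 and 4 on TPM. On quantile-normalised FPKM 6 rose and 6 fell (median -0.12, and -0.09 over all tested genes). Of all tested genes 41.9% rose and 36.8% fell with TMM (median 0.06). Irf1, an interferon regulatory factor, rose from 28.5 ± 1.64 to 368 ± 6.78 FPKM (3.39 on the log2 scale, SE 0.07), and stood at 27.9 ± 2.14 in BMDM, so its order of groups was not that of Cd86. Ciita, the transactivator of MHC class II genes, rose from 0.0167 ± 0.00577 to 0.197 ± 0.00577 FPKM (2.62 on the log2 scale, SE 0.45), a level far under the 4.07 ± 0.249 of BMDM. Of the 6 that fell, Irf8 changed most, from 30.4 ± 1.85 to 8.18 ± 0.27 FPKM (-2.2 on the log2 scale, SE 0.09).

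Of 11 tested genes of other costimulatory and adhesion ligands, 3 rose and 5 fell, where 41.9% and 36.8% of all tested genes did. The split of the 11 genes was 4 and 4 with library totals and on FPKM, and 5 and 4 on TPM. Their median log2 change was 0.08 where all tested genes had 0.06. It was -0.06 without Cd70, which had a count of 0 in control-CAR macrophages. Tnfsf14, which encodes the ligand LIGHT, rose from 2.44 ± 0.560 to 16.9 ± 0.972 FPKM (2.49 on the log2 scale, SE 0.14). Slamf1 fell from 12.2 ± 3.10 to 3.52 ± 0.521 FPKM (-2.05 on the log2 scale, SE 0.15), and Tnfsf15 from 0.303 ± 0.138 to 0.117 ± 0.0153 (log2 change -1.66, SE 0.36).

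**Figure D4:**
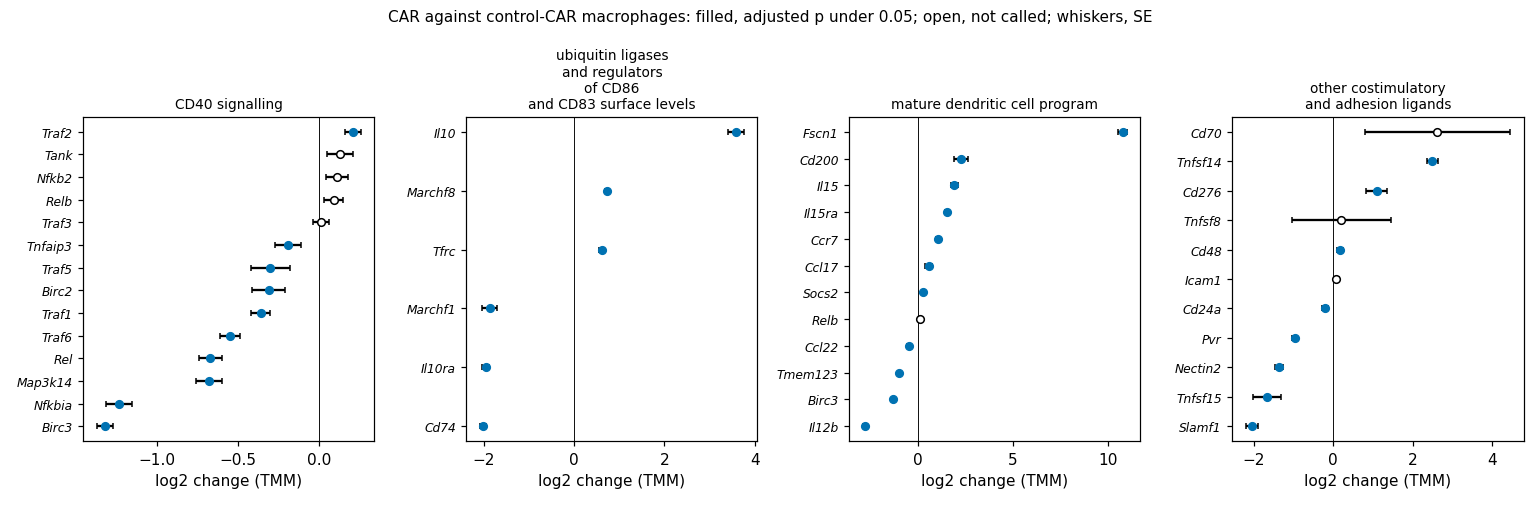
Log2 changes in CAR against control-CAR macrophages from the edgeR model for the tested genes of 4 lists, with the SE as whiskers; filled points passed at an adjusted p under 0.05 and open points did not. The CD40 signalling genes lie between -1.32 and 0.21 while Il10, of the regulator list, lies at 3.59; the values of Fscn1 and Cd70, which had 2 and 0 counts in control-CAR, depend on the model's prior count.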

How the data were processed

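The authors deposited 1 table of 17030 genes with 3 values per library. Its estimated counts are not normalised, per the file headers, and 94.4% to 96.0% of them per library, zeros included, were exactly whole as written (93.6% to 95.2% of those above 0). The deposited FPKM and TPM columns are the authors' own scaling of these counts. The submitters' processing notes name HISAT2, Bowtie2, RSEM 1.3.1, DESeq2 1.4.5 and the build GRCm38.p6; for the annotation, strand setting and each tool's role the sources used here say nothing. Another 15 columns of averages were not used here.

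Counts were rounded and tested with edgeR 4.0.16 (quasi-likelihood, TMM, all 15 libraries in 1 model with a mean per group, two-sided) in R 4.3.3, for genes with at least 1 FPKM in at least 3 libraries: 11793 genes were tested and 5237 left out. A gene was called at a Benjamini-Hochberg adjusted p under 0.05 over all tested genes. The SE is the absolute log2 change divided by the square root of the test's F. Alternatives used limma 3.58.1 and DESeq2 1.42.0. Coordinates and 16978 matched identifiers came from RefSeq. By the identifier, 25 symbols that were missing or had the form of a date were restored. The genes named were the 7 costimulatory genes, up to 3 called genes per list with the largest change between CAR and control-CAR, and the 3 genes most correlated with each of the 7 among those with a group mean of at least 5 FPKM; values of other genes are given as context, and some genes of the lists are not reported here. The 7 genes and the lists were chosen with earlier results of these data known.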

Additional observations from a re-analysis of the deposited data

How the results depend on the processing

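Each result was recomputed under 11 other settings and without each of the 15 libraries in turn. For CAR against control-CAR macrophages, all 7 genes kept their direction and their call in all 26 recomputations. Their log2 changes ranged from -1.50 to -1.15 for Cd80, 2.40 to 5.52 for Cd86, -2.44 to -1.79 for Icosl, 3.89 to 5.51 for Cd40, -1.10 to -0.45 for Tnfsf9, 0.60 to 2.82 for Tnfsf4 and 1.69 to 2.23 for Cd83; the lowest values of Cd86 and Tnfsf4 are among those computed with a pseudocount of 1, which compresses low levels. The counts of the 7 genes called higher or lower stayed within 1.5 times in all recomputations of the 6 comparisons but 1. There limma on log2(FPKM + 0.1) called 1 gene, Cd40, lower in control-CAR than in Hoxb8 macrophages, where edgeR called 0 (log2 change -0.56). That limit lets a count of 3 lose 1 call, and single calls did change. In CAR against BMDM, Cd80 kept its direction and call in only 12 of 26 recomputations, Tnfsf4 in 20 and Icosl in 22. In Hoxb8 macrophages against BMDM, Tnfsf9 kept both in 18, Cd83 in 21 and Tnfsf4 in 25. Directions turned for small changes only. For Tnfsf9 in Hoxb8 macrophages against BMDM the log2 change was -0.09 on TPM. For Cd83 in the same comparison it was 0.06 without BMDM replicate 1, 0.04 without Hoxb8 macrophage replicate 1 and -0.14 without Hoxb8 macrophage replicate 3, its range over the libraries left out being -0.14 to 0.06. For Cd80 in CAR against BMDM it was 0.04 with library totals and 0.05 on TPM, and for Icosl 0.11 with library totals, 0.10 on log2(FPKM + 1), 0.11 on log2(FPKM + 0.1) and 0.17 on TPM. The cause was not tested.

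The replicate numbers of the titles did not pair the libraries: over 30 pairs with the same number in different groups, the correlation of deviations from the group mean ran from -0.258 to 0.0814, and 0 of 15 libraries correlated best with its own number in every other group. With the replicate number as a block, 4 of the 7 genes were called higher and 3 lower in CAR against control-CAR, as without it, and the block changed no count of the 7 genes in the other comparisons. Among all tested genes, control-CAR against Hoxb8 macrophages had 85 genes higher and 224 lower, and 12 and 85 when only those 6 libraries were fitted. Depth limits Cd86, Cd40 and Tnfsf4 in the control-CAR and Hoxb8 macrophages and all but Icosl and Cd80 in progenitors.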
